A study of Mus musculus with 9 samples.

Results

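The Krüppel-like factors (KLFs) described here are 10 genes, Klf1, Klf2, Klf3, Klf4, Klf6, Klf7, Klf9, Klf10, Klf11 and Klf13, chosen by name from a table of 43629 Ensembl genes. All 10 were found in the table, and all 10 passed the filter for testing, which asked for values of 10 or more in 3 or more libraries. KLFs are transcription factors that bind GC-rich and CACCC-type sites in DNA through zinc fingers at the end of the protein, and they share these fingers with the SP factors. Outside the fingers they differ, so that some members, such as Klf1, mainly activate genes, whereas others recruit the corepressors CtBP (Klf3) or Sin3 (Klf9, Klf10, Klf11 and Klf13). In bone marrow, Klf1 is known as the master activator of red cell genes, Klf4 as a factor of inflammatory monocytes, and Klf2 as a factor that keeps lymphocytes and monocytes quiescent.

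RNA-seq was done on mouse bone marrow cells selected for c-KIT, a receptor tyrosine kinase on the surface of blood-forming progenitors. There were 3 groups of C57BL/6 mice with 3 libraries each. The group KI_Chd7del had the genotype Chd7f/f, Mx1-Cre, Cbfb+/56M, which combines floxed alleles of the chromatin remodeller gene Chd7 with the CBFB-MYH11 fusion knock-in of human acute myeloid leukaemia. The group KI had Mx1-Cre and Cbfb+/56M, and the group WT was labelled wild type, with no Cre named. All mice had been given pIpC, a synthetic double-stranded RNA that induces interferon and with it the Mx1 promoter, and their age and sex were not given. Mx1-Cre acts in many interferon-responsive cells and not only in blood progenitors, and the selected cells are a mixture of progenitor types. In such bulk samples fewer cells of a type and less RNA per cell cannot be told apart. No label says whether each library is its own mouse. The p-values therefore cover only the variation among these libraries, which may be technical.

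Values were taken to be read numbers that the authors divided by a size factor per library and rounded, and are called normalised values here. With such a division the sequencing depth of the libraries is unknown. The lowest value of any member in any library was 422, that of Klf2 in KI_Chd7del library 1. Chd7 had 1862, 1794 and 1921 in KI_Chd7del, 1979, 2934 and 2009 in KI, and 3471, 3745 and 3982 in WT. Its difference in KI_Chd7del against KI did not pass the test (log2 -0.29, SE 0.14, limma adjusted p = 0.121), and a value for the gene as a whole does not resolve the floxed exon. Myh11, which supplies the tail of the fusion, separated both fusion groups from WT, with 164 to 187 in KI_Chd7del, 176 to 219 in KI and 5 to 9 in WT. Kit was at 6131 to 8508 in KI_Chd7del, 3226 to 3868 in KI and 7354 to 7797 in WT.

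The bases before the starts of Klf1, Klf2, Klf3 and Klf4 are shown because Klf1 and Klf4 mark the red cell and monocyte lineages, Klf2 is the relative of Klf4 that was lower in both fusion groups, and Klf3 is a known target of Klf1. They are the stretches of the RefSeq promoter windows (GRCm38.p6) that lie upstream of both the RefSeq and the GENCODE start, 5′ to 3′ on the gene's strand. Capitals mark matches on either strand to GATAA (GATA factors), TGTGGT (RUNX factors, the partners of CBFB), CACCC (the KLF box), GGGCGG (the GC box of SP factors and KLFs), CACGTG (an E-box) and the MEF2 motif (CTA and TAG with any 4 bases between).
Klf1, chr8:84901732-84901927, plus strand: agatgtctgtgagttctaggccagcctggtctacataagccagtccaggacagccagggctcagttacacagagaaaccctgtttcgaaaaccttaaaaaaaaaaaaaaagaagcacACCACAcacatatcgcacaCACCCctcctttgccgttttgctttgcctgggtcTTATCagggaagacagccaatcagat
Klf2, chr8:72318812-72319032, plus strand: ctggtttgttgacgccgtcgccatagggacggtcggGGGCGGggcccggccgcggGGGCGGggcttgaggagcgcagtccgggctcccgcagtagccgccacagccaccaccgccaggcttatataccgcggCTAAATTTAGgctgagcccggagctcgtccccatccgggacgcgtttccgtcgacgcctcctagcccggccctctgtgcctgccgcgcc
Klf3, chr5:64803271-64803387, plus strand: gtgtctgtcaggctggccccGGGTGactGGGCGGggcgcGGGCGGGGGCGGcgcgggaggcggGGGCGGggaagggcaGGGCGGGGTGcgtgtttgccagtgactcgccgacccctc
Klf4, chr4:55532476-55532725, minus strand: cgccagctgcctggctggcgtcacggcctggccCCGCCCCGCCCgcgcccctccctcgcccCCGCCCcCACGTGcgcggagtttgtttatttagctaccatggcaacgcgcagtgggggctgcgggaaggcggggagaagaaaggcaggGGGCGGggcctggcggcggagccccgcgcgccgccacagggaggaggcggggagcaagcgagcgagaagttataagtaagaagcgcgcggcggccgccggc

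RefSeq windows of 300 bases, from 250 before to 50 after the start, were at hand for 9 of the 10 members, all but Klf10. Among these windows, GATAA and TGTGGT were found in that of Klf1 alone, against 25.4% and 16.8% of all 32851 promoter windows. The MEF2 motif was found only in the Klf2 window, against 3.69% of all windows. CACCC stood in 6 of the 9, those of Klf1, Klf2, Klf3, Klf7, Klf9 and Klf13, against 57.5% of all. GGGCGG stood in 7 of the 9, all but Klf1 and Klf9, against 35.7% of all, and CACGTG in those of Klf4, Klf6 and Klf11, against 7.15%. The windows were GC-rich, from 51.3% in Klf1 to 77.7% in Klf11. Where motifs of different kinds touched, they shared 1 base, in the windows of Klf3 and Klf13. A match is a description of letters, not a measured binding site.

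Levels of different members were compared per kilobase of merged GENCODE exons. Klf1 had the highest value per kilobase in each group, at 1499 ± 292 in KI_Chd7del, 1854 ± 222 in KI and 1914 ± 206 in WT (SD, n = 3). Klf6 came next, at 947 ± 110 in KI_Chd7del, 1330 ± 56.8 in KI and 1535 ± 115 in WT. The lowest pair was Klf7 and Klf3 in KI_Chd7del, Klf9 and Klf7 in KI, and Klf9 and Klf7 in WT, all between 102 and 136 per kilobase on average. In KI, Klf7 and Klf9 averaged 125 ± 9.96 and 114 ± 8.1 and their ranges overlapped, at 118 to 137 and 108 to 124, and their ranges overlapped in WT too. In KI_Chd7del, Klf7 at 90.8 to 118 lay below Klf3 at 131 to 139, while the range of Klf3 lay within that of Klf9 at 125 to 149.

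The member that changed place most was Klf4. It held rank 4 of the members in KI_Chd7del with 533 ± 92.9 per kilobase, rank 3 in KI with 974 ± 130, and rank 8 in WT with 163 ± 3.63 (SD, n = 3). Klf4 thus made up 10.95% of the summed level per kilobase of the 10 members in KI_Chd7del, 14.9% in KI and 2.66% in WT. Klf2 moved the other way, with 6.98% in KI_Chd7del, 3.97% in KI and 10.1% in WT. The sum of the 10 members' normalised values was 17657 to 21303 in KI_Chd7del, 25776 to 26563 in KI and 23695 to 25034 in WT, so these 3 ranges did not overlap. As a share of the column total, the sum was 0.047% to 0.0559% in KI_Chd7del, 0.0675% to 0.0683% in KI and 0.0525% to 0.0549% in WT. On that scale KI_Chd7del and WT overlapped. Summed per kilobase, the members had 4483 to 5514 in KI_Chd7del, 6286 to 6741 in KI and 6040 to 6314 in WT. There KI and WT overlapped.

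**Figure D1:**
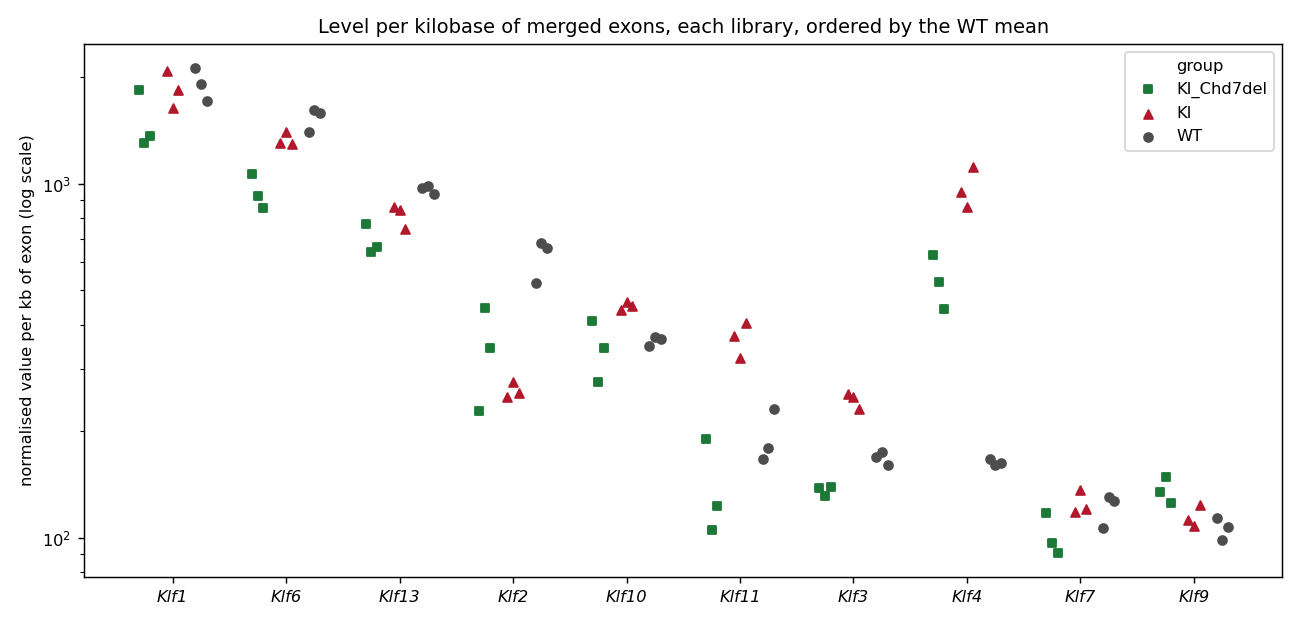
Normalised value per kilobase of merged exons (log axis) of the 10 members, with 1 point per library and the groups side by side within each gene, ordered by the WT mean. Klf1 and Klf6 are at the top in each group, and Klf4 stands at 858 to 1115 in KI and 160 to 167 in WT.

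The 3 comparisons were made in 1 limma fit over 15997 genes, with p-values adjusted over all of them. In KI against WT, 6 of the 10 members passed an adjusted p of 0.05, while 58.9% of all genes tested passed. Of these members 4 were higher and 2 lower, beside 31.8% and 27.2% of all genes. In KI_Chd7del against KI, 6 of the 10 passed, while 40.4% of all genes did. All 6 of these members were lower, beside 22.9% of all genes lower and 17.5% higher. In KI_Chd7del against WT, 6 of the 10 passed, against 48.4% of all genes, with 2 members higher and 4 lower beside 24% and 24.3% of all genes. The shares of members called in the comparisons with WT are thus near those of the whole table. Counts of listed genes that rose or fell, given below, are to be read beside the same shares of all genes.

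The median difference of the 10 members was 0.07 in KI against WT, beside 0.02 over all genes tested. It was -0.37 in KI_Chd7del against KI, beside -0.01, and -0.33 in KI_Chd7del against WT, beside 0.02. The libraries of KI and WT did not overlap for 7 members, against 67.6% of all genes (35.9% higher and 31.8% lower in KI). Those of KI_Chd7del and KI did not overlap for 7 members, 6 of them lower, against 52% of all genes (23.8% higher and 28.2% lower). Those of KI_Chd7del and WT did not overlap for 6 members, against 57.6% of all genes (28.9% higher and 28.8% lower). These comparisons share groups, so their counts are not independent of each other. A test against a 1.5-fold change kept the calls of Klf2 and Klf4 in KI against WT, Klf3 and Klf11 in KI_Chd7del against KI, and Klf4 in KI_Chd7del against WT, and ended the others.

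**Figure D2:**
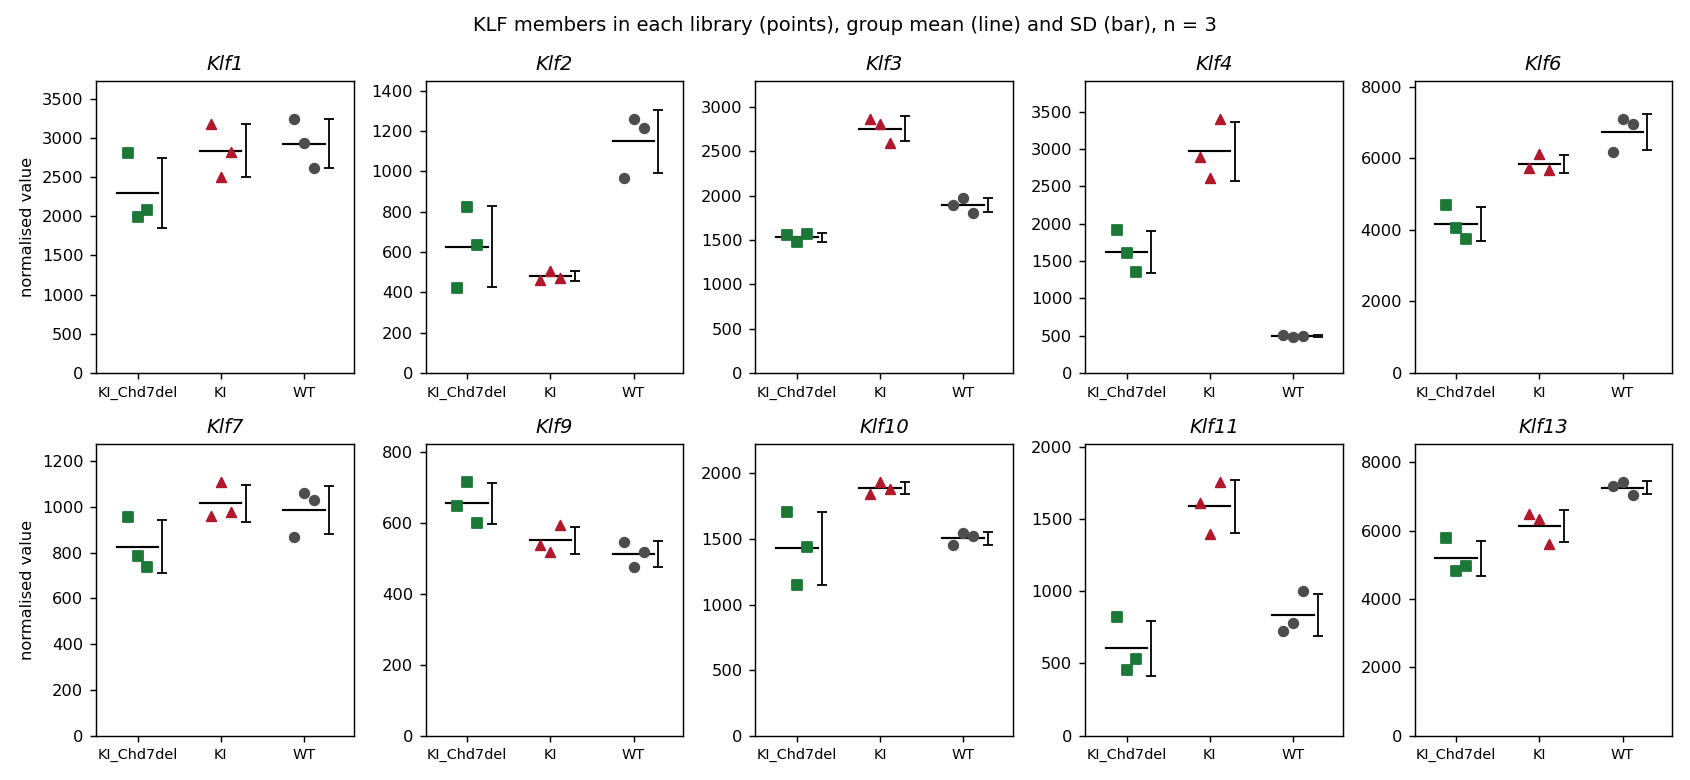
Normalised values of each member in each library (points) with the group mean (line) and SD (bar), each axis starting at 0. Klf3 and Klf11 stand highest in KI, Klf2 stands highest in WT, and Klf4 is lowest in WT, where its libraries lie between 488 and 510.

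Klf4 (ENSMUSG00000003032, chromosome 4, 55527143 to 55532466, minus strand, GRCm38), a zinc finger factor of monocyte differentiation and of cell cycle arrest, had the largest change of the 10. It had 1913, 1611 and 1347 in KI_Chd7del, 2893, 2617 and 3401 in KI, and 510, 488 and 497 in WT. Each KI library lay above each KI_Chd7del library, and each of these lay above each WT library. Klf4 was 5.92-fold higher in KI than in WT (log2 2.56, SE 0.13, limma adjusted p = 7.18e-07). In KI_Chd7del it fell to 0.544 of KI (log2 -0.88, SE 0.13, adjusted p = 0.00107) and was 3.22-fold higher than in WT (log2 1.69, SE 0.13, adjusted p = 2.16e-05).

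Most markers of monocytes and macrophages moved with Klf4. Of the 12 other markers on that list, 9 rose and 1 fell in KI against WT (median log2 2.17), 2 rose and 8 fell in KI_Chd7del against KI (median -0.96), and 10 rose in KI_Chd7del against WT (median 1.14). Their summed value was 143451 to 161625 in KI_Chd7del, 251990 to 268222 in KI and 67948 to 73786 in WT, the same order of groups as for Klf4. None of the 12 was at 0. Ly86, a secreted protein of the lipopolysaccharide response, rose by 2.62 in KI against WT and fell by 1.12 in KI_Chd7del against KI. Ccr2, a chemokine receptor through which monocytes leave the marrow, had 3.87 and -2.44 in the same comparisons. Cx3cr1, another chemokine receptor, went the other way with -2.21 and 1.44, and Irf8 rose in both, by 0.98 and 0.56. Whether more cells of this lineage take part in the change of Klf4 was not tested.

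Genes listed as regulators in monocytes did not all move with Klf4. This list also holds receptor genes, such as Csf1r and Cx3cr1. It shares these 2, Irf8 and Cd14 with the markers above, so the 2 lists are not independent. Of 10 listed, 5 rose and 3 fell in KI against WT, 3 rose and 4 fell in KI_Chd7del against KI, and 3 rose and 1 fell in KI_Chd7del against WT. Zeb2 and Csf1r, the receptor of macrophage colony-stimulating factor, rose by 2.13 and 2.68 in KI against WT and fell by 1.02 and 1.13 in KI_Chd7del against KI. Spi1, which encodes PU.1, fell in KI against WT (log2 -0.84, adjusted p = 7.7e-06). The genes whose profile over the 9 libraries came closest to that of Klf4 were Sfxn3, Plekho1 and Rbm20, at Euclidean distances of 0.37, 0.39 and 0.44 on the centred log2 scale.

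Klf2 (ENSMUSG00000055148, chromosome 8, 72319033 to 72321656, plus strand), the closest relative of Klf4 in sequence and a factor of quiescence and migration in lymphocytes, was lower in both fusion groups. It had 422, 824 and 634 in KI_Chd7del, 460, 507 and 472 in KI, and 970, 1260 and 1217 in WT. All WT libraries lay above all others, and the ranges of KI_Chd7del and KI overlapped. In KI it fell to 0.420 of WT (log2 -1.25, SE 0.21, limma adjusted p = 0.000765) and in KI_Chd7del to 0.530 of WT (log2 -0.92, SE 0.21, adjusted p = 0.00629). Against KI, KI_Chd7del differed by 0.33 with a 95% interval of -0.14 to 0.81 (adjusted p = 0.235). Without KI_Chd7del library 1 this difference was 0.59 and passed (adjusted p = 0.0136), whereas over all left-out libraries it reached down to 0.11 (adjusted p up to 0.6633).

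Klf2 is also an immediate early gene, one of those that cells switch on within minutes of a stimulus or of handling. The 14 listed genes of this kind, among them Fos, Jun and Egr1, summed to 14646, 36357 and 21175 in KI_Chd7del libraries 1, 2 and 3, to 12082 to 13575 in KI, and to 9260, 19251 and 28916 in WT libraries 1, 2 and 3. KI_Chd7del library 2 thus had the highest Klf2 and the highest sum of its group, and library 1 the lowest of both. In WT, library 1 had the lowest of both, whereas library 3 had the highest sum and library 2 the highest Klf2. In KI the order was reversed, as library 2 had the highest Klf2 (507) and the lowest sum (12082). WT library 1 had the lowest sum of all 9 libraries (9260), yet its Klf2 of 970 lay above each KI library. Whether this response takes part in the Klf2 values was not tested. Of the 13 listed genes that were tested, 2 rose and 3 fell in KI against WT, 4 rose and 3 fell in KI_Chd7del against KI, and 2 rose and 1 fell in KI_Chd7del against WT. Atf3, a stress factor, rose by 4.56 in KI against WT and fell by 3.05 in KI_Chd7del against KI.

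Known targets of Klf2 split. Of 8 listed 7 were tested, and 3 rose and 2 fell in KI against WT. In KI_Chd7del, 2 rose and 3 fell against KI, and 4 rose and 1 fell against WT. Itgb7, an integrin chain, and Thbd, thrombomodulin, rose by 3.25 and 1.59 in KI against WT, and fell by 1.22 and 0.62 in KI_Chd7del against KI. S1pr4, a sphingosine phosphate receptor, fell by 1.36 in KI against WT, and S1pr1, the receptor that lets lymphocytes leave tissues, rose by 1.16 in KI_Chd7del against WT. The closest profiles to that of Klf2 were those of Selenon, Ankrd46 and Tango6 (distances 0.43, 0.51 and 0.54).

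**Figure D3:**
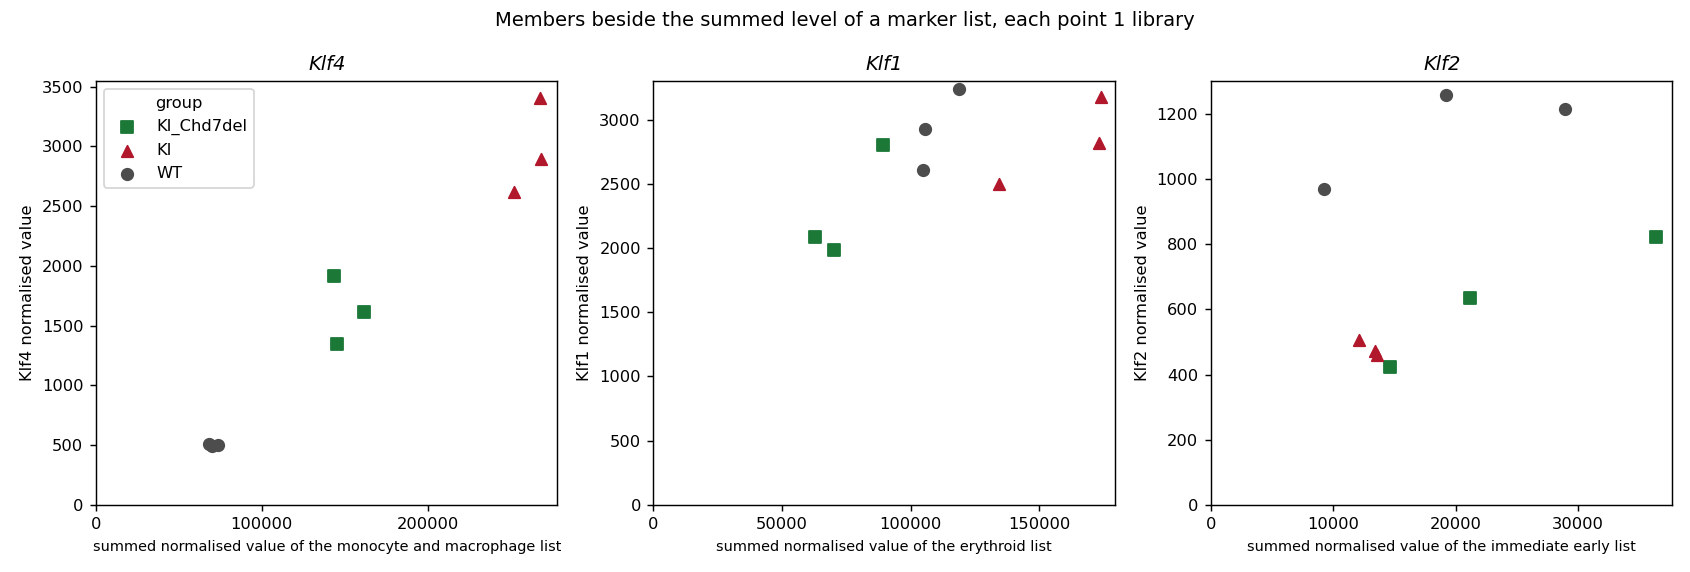
Normalised value of Klf4, Klf1 and Klf2 (vertical axes) against the summed value of the monocyte and macrophage, erythroid and immediate early lists (horizontal axes, normalised values), with 1 point per library. In the Klf4 panel the 3 groups occupy separate places, with WT at 67948 to 73786 for the list, whereas the erythroid sums of KI, 134183 to 173908, lie above those of WT at similar Klf1 values.

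Klf1 (ENSMUSG00000054191, chromosome 8, 84901928 to 84905291, plus strand), the erythroid activator, had 2806, 1988 and 2087 in KI_Chd7del, 3184, 2504 and 2822 in KI, and 3242, 2932 and 2612 in WT. The ranges of all 3 groups overlapped, and KI_Chd7del library 1 was the highest of its group. Klf1 differed by -0.05 in KI against WT (95% interval -0.37 to 0.27, limma adjusted p = 0.790), by -0.32 in KI_Chd7del against KI (-0.64 to 0.00, adjusted p = 0.103), while KI_Chd7del differed from WT by -0.36 (-0.68 to -0.04, adjusted p = 0.0596). None of these passed the test. Without KI_Chd7del library 1, Klf1 was lower in KI_Chd7del against KI (-0.47, adjusted p = 0.0139) and against WT (-0.52, adjusted p = 0.00693). Over all left-out libraries these differences reached -0.22 (adjusted p up to 0.2865) and -0.27 (adjusted p up to 0.1862).

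Most red cell genes known as Klf1 targets were lower in KI_Chd7del than in KI. Of 20 listed, 18 were tested, and 11 rose and 4 fell in KI against WT (median log2 0.56). In KI_Chd7del against KI, 16 fell and none rose (median -0.92), and in KI_Chd7del against WT, 10 fell and 2 rose (median -0.57). Epb42, a red cell membrane protein, fell by 1.04 in KI_Chd7del against KI, Ermap by 0.85, Dmtn, which bundles actin, by 1.70, and Ank1, ankyrin of red cells, by 0.87. In KI against WT, Xpo7 and Bcl11a, a repressor of embryonic globin genes, rose by 0.79 and 0.82, while Add2, an adducin, fell by 3.17. The erythroid marker list shares genes with these targets, such as Epb42 and Ermap, and had 1 gene higher and 13 of 15 lower in KI_Chd7del against KI. Its summed value was 62999 to 89244 in KI_Chd7del, with the highest in library 1, 134183 to 173908 in KI and 104772 to 118950 in WT. Whether fewer red cell precursors take part in these values was not tested.

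Klf3 (ENSMUSG00000029178, chromosome 5, 64803388 to 64832901, plus strand), a repressor that Klf1 is known to induce and that dampens CACCC-driven genes, changed with little spread. It had 1554, 1475 and 1563 in KI_Chd7del, 2865, 2808 and 2595 in KI, and 1901, 1969 and 1808 in WT. The 3 groups did not overlap, with KI highest and KI_Chd7del lowest. Klf3 was 1.46-fold higher in KI than in WT (log2 0.54, SE 0.06, limma adjusted p = 4.27e-05), fell to 0.556 of KI in KI_Chd7del (log2 -0.85, SE 0.06, adjusted p = 2.9e-05), and fell to 0.809 of WT there (log2 -0.31, SE 0.06, adjusted p = 0.00217). The last call was lost after scaling to the column total (-0.06, adjusted p = 0.442). The antisense gene Gm20033 shares 404 exon bases with Klf3 and was at 1 to 5 in each library. Pacs2, Asb1 and Slc2a8 had the closest profiles (distances 0.23, 0.27 and 0.28).

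Klf6 (ENSMUSG00000000078, chromosome 13, 5861482 to 5870394, plus strand), a broadly expressed immediate early activator, had 4688, 4041 and 3743 in KI_Chd7del, 5728, 6128 and 5670 in KI, and 6163, 7090 and 6965 in WT. The KI_Chd7del libraries were the lowest, and those of KI lay just below those of WT. Klf6 fell to 0.709 of KI in KI_Chd7del (log2 -0.50, SE 0.09, limma adjusted p = 0.00249) and to 0.615 of WT (log2 -0.70, SE 0.09, adjusted p = 0.000236). In KI against WT it differed by -0.20 (95% interval -0.40 to -0.01, adjusted p = 0.0711), or by 0.025 after scaling to the column total. Without WT library 1 it was -0.27 and passed (adjusted p = 0.0363), whereas over all left-out libraries it reached -0.17 (adjusted p up to 0.1966). Nxt2, Ppp1r15b and Irak2 were closest to Klf6 (distances 0.18, 0.22 and 0.23).

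Klf7 (ENSMUSG00000025959, chromosome 1, 64029447 to 64122282, minus strand), a relative of Klf6 studied mainly in neurons, had 956, 784 and 738 in KI_Chd7del, 962, 1110 and 979 in KI, and 868, 1062 and 1030 in WT. All KI_Chd7del libraries lay below the lowest KI library, library 1 by only 6, while KI and WT overlapped. Klf7 passed in no comparison, with -0.31 in KI_Chd7del against KI (limma adjusted p = 0.0623), 0.05 in KI against WT (adjusted p = 0.750) and -0.26 in KI_Chd7del against WT (adjusted p = 0.0930). Without KI_Chd7del library 1 it was lower in KI_Chd7del than in KI (-0.42, adjusted p = 0.0155) and in WT (-0.37, adjusted p = 0.0199), and without WT library 1 lower than in WT (-0.35, adjusted p = 0.0429). Over all left-out libraries the differences reached -0.23 against KI (adjusted p up to 0.1867) and -0.18 against WT (adjusted p up to 0.2639). Scaled to the column total, Klf7 was higher in KI than in WT (0.28, adjusted p = 0.0494), but that scaling also raised the median of all genes in this comparison. The antisense gene Gm26649 covers 38.2% of the 50-base runs of Klf7 transcripts and was listed at 0 in all libraries, and use of strand in the authors' counting was not stated.

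Klf11 (ENSMUSG00000020653, chromosome 12, 24651274 to 24662789, plus strand), a Sin3-recruiting repressor induced by transforming growth factor beta, had the largest fall with the Chd7 alleles. It had 823, 456 and 532 in KI_Chd7del, 1613, 1394 and 1758 in KI, and 724, 779 and 1003 in WT. All KI libraries lay above all others, while KI_Chd7del and WT overlapped through KI_Chd7del library 1. Klf11 was 1.91-fold higher in KI than in WT (log2 0.93, SE 0.21, limma adjusted p = 0.00404) and fell to 0.370 of KI in KI_Chd7del (log2 -1.43, SE 0.21, adjusted p = 0.00103). Against WT, KI_Chd7del differed by -0.50 (95% interval -0.97 to -0.03, adjusted p = 0.0769), or by -0.75 without KI_Chd7del library 1 (adjusted p = 0.00512). Over all left-out libraries this difference reached -0.32 (adjusted p up to 0.2433). Tulp4 and Fam210b were among the closest profiles, at larger distances than for most members (0.58 and 0.59).

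Klf10 (ENSMUSG00000037465, chromosome 15, 38291463 to 38300706, minus strand), the closest relative of Klf11 and likewise induced by transforming growth factor beta, had its group means in the same order. It had 1706, 1148 and 1436 in KI_Chd7del, 1843, 1936 and 1883 in KI, and 1452, 1547 and 1520 in WT. The KI libraries were the highest, and the KI_Chd7del libraries spread around those of WT. Klf10 was 1.25-fold higher in KI than in WT (log2 0.33, SE 0.12, limma adjusted p = 0.0411), a call that 14 of 21 alternatives ended, among them leaving out any 1 library of KI or WT (adjusted p up to 0.107). In KI_Chd7del it fell to 0.748 of KI (log2 -0.42, SE 0.12, adjusted p = 0.0218), and without KI_Chd7del library 2 the difference was -0.27. Leaving out any 1 library of KI ended this call (adjusted p up to 0.0559), as did a fit of these groups alone (0.0524). Against WT it differed by -0.09 (adjusted p = 0.549). Unkl, Zfp160 and Zbtb43 were closest to it (distances 0.19, 0.20 and 0.21).

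The pathway genes of transforming growth factor beta were mixed. Of 16 listed and tested, 7 rose and 4 fell in KI against WT (median log2 0.24), and 3 rose and 4 fell in KI_Chd7del against KI (median -0.06). In KI_Chd7del against WT, 6 rose and 3 fell. Among all genes tested, 31.8% rose and 27.2% fell in KI against WT, and 17.5% and 22.9% in KI_Chd7del against KI. In KI_Chd7del against WT these shares were 24% and 24.3%. Tgfbr2, a receptor chain, and Smad4, the shared signal carrier, rose by 1.00 and 0.39 in KI against WT, while Id2, an inhibitor of helix-loop-helix factors, and Tgfbr3 fell by 1.62 and 1.57. Ski, a repressor of SMAD signalling, fell by 0.63 in KI_Chd7del against KI.

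Klf13 (ENSMUSG00000052040, chromosome 7, 63886351 to 63938915, minus strand), a factor of lymphocyte and red cell genes that recruits Sin3, had 5785, 4827 and 4975 in KI_Chd7del, 6476, 6345 and 5601 in KI, and 7317, 7432 and 7043 in WT. Both fusion groups lay below WT, and KI_Chd7del library 1 lay above KI library 3. Klf13 fell to 0.713 of WT in KI_Chd7del (log2 -0.49, SE 0.08, limma adjusted p = 0.00101). The smaller differences of KI against WT (-0.24, adjusted p = 0.0247) and of KI_Chd7del against KI (-0.24, adjusted p = 0.0372) were less stable. The first was lost after scaling to the column total (-0.02, adjusted p = 0.883) and without WT library 1, WT library 2 or KI library 3 (adjusted p up to 0.0917). The other was lost under 12 of 21 alternatives, among them leaving out library 2 or 3 of KI_Chd7del or library 1 or 2 of KI (adjusted p up to 0.119). Anln, Prkag1 and Srd5a3 were closest to Klf13 (distances 0.16, 0.18 and 0.18). Among the members themselves, Klf6 and Klf13 had the most similar profiles (distance 0.42).

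Klf9 (ENSMUSG00000033863, chromosome 19, 23141226 to 23168134, plus strand), a Sin3-recruiting repressor induced by glucocorticoids, was 1 of 2 members, with Klf4, that were higher in KI_Chd7del than in WT. It had 650, 717 and 602 in KI_Chd7del, 539, 520 and 595 in KI, and 548, 475 and 518 in WT. The KI_Chd7del libraries were the highest, by 7 above the highest KI library. Klf9 was 1.28-fold higher in KI_Chd7del than in WT (log2 0.35, SE 0.09, limma adjusted p = 0.0131), lost without WT library 2 or KI_Chd7del library 2 (adjusted p = 0.0532 and 0.0502) and with quantile normalisation (0.0813). Against KI it differed by 0.25 (95% interval 0.04 to 0.46, adjusted p = 0.0615), and 6 of 21 alternatives brought this past the threshold, among them leaving out KI_Chd7del library 3 (0.31, adjusted p = 0.0499). Over all left-out libraries the difference reached down to 0.18 (adjusted p up to 0.1893). In KI against WT it differed by 0.10 (adjusted p = 0.378), or by 0.33 after scaling to the column total (adjusted p = 0.0208). That scaling also raised the median of all genes in this comparison. Krtcap2, Herpud1 and Trmt61b were closest to Klf9 (distances 0.15, 0.20 and 0.20).

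Other genes induced by glucocorticoids did not move as a block. Of 13 listed, 5 rose and 6 fell in KI against WT (median log2 -0.63), 4 rose and 3 fell in KI_Chd7del against WT, and 5 rose and 3 fell in KI_Chd7del against KI. Fkbp5, a chaperone of the glucocorticoid receptor, fell by 0.71 in KI against WT and rose by 0.54 in KI_Chd7del against KI. Errfi1, an inhibitor of growth factor receptors, and Cebpd, a C/EBP factor, had 2.45 and -1.84 in KI against WT, and -1.64 and 0.86 in KI_Chd7del against KI, all past the threshold.

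**Figure D4:**
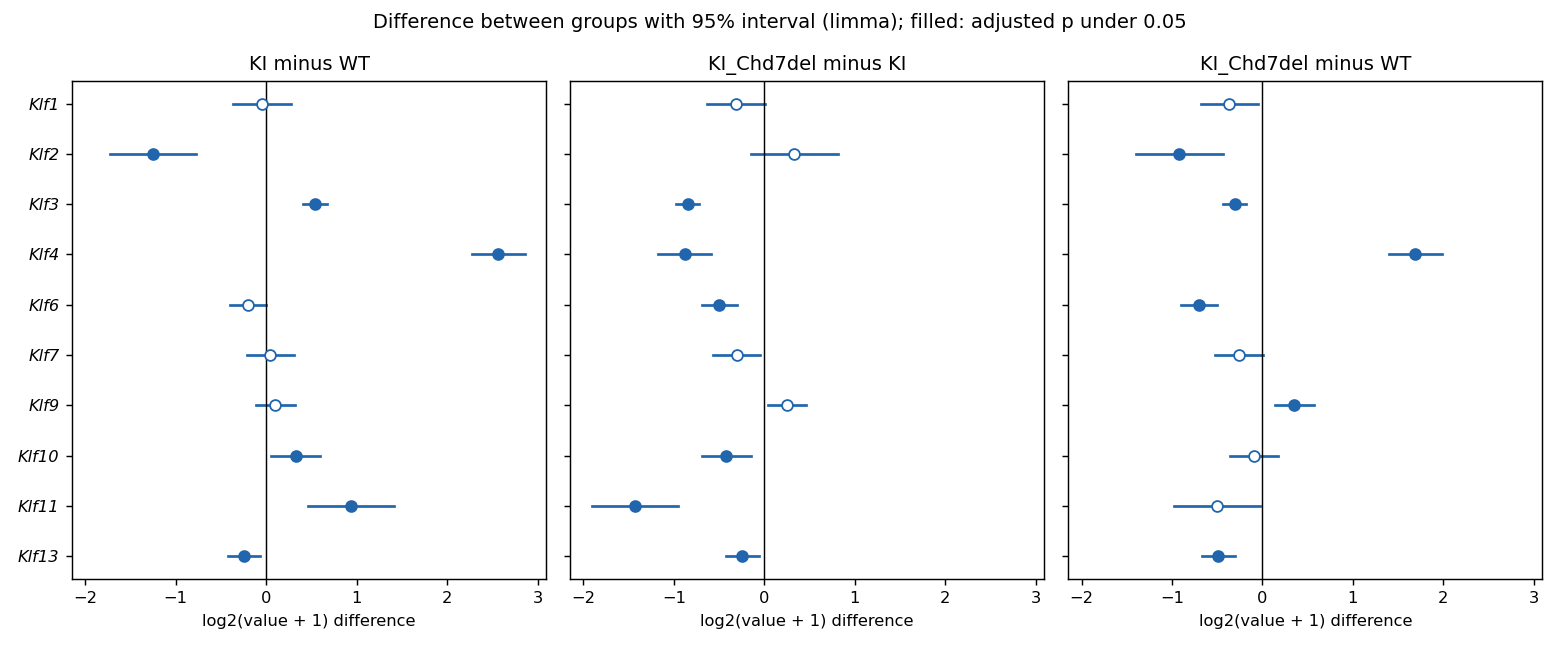
Differences on the log2(value + 1) scale with 95% intervals for the 10 members in 3 comparisons (columns), filled where the adjusted p was under 0.05. Klf4 at 2.56 and 1.69 stands out to the right against WT, and all filled points of KI_Chd7del minus KI lie below 0, with Klf11 at -1.43.

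Of the 16 other KLF and SP genes, 7 were tested. Klf14, Sp5, Sp6 and Sp8 were listed at 0 in all 9 libraries, and Klf12, Klf15, Klf17, Sp7 and Sp9 did not reach the filter. Klf8, which like Klf3 recruits CtBP and is known in mice as a target of Klf1, had 232, 242 and 216 in KI_Chd7del, 296, 295 and 321 in KI, and 153, 161 and 167 in WT. It was higher in KI than in WT (log2 0.92, SE 0.10, limma adjusted p = 5.31e-05), lower in KI_Chd7del than in KI (-0.40, adjusted p = 0.0126), and higher in KI_Chd7del than in WT (0.52, adjusted p = 0.00265). Klf5, an activator of growth genes, had 410, 310 and 307 in KI_Chd7del, 503, 424 and 424 in KI, and 609, 819 and 735 in WT, and fell by 0.67 in KI against WT and by 1.08 in KI_Chd7del against WT. Sp1, Sp2 and Sp4 rose by 0.20, 0.24 and 0.25 in KI against WT, and fell by 0.28, 0.40 and 0.24 in KI_Chd7del against KI. Sp3 fell by 0.17 in KI against WT and by 0.21 in KI_Chd7del against KI. Klf16 did not pass (log2 0.05, -0.15 and -0.10 in the 3 comparisons). In KI_Chd7del against KI, 5 of these 7 genes were lower and none was higher, beside 22.9% of all genes lower and 17.5% higher.

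Genes listed as cofactors of KLFs moved both ways in KI, with 9 of 15 lower and 5 higher than in WT (median log2 -0.18). Ctbp2, the corepressor of Klf3 and Klf8, fell by 0.54 there, and Hdac2 and Hdac3, histone deacetylases, fell by 0.40 and 0.35. Fbxw7, a ubiquitin ligase subunit that marks KLFs for degradation, rose by 0.80. Crebbp and Kat2b, histone acetyltransferases, also rose, by 0.60 and 0.38. In KI_Chd7del, 4 were higher and 4 lower than in KI, and 2 higher and 7 lower than in WT. Hdac2 rose by 0.33 against KI, and Fbxw7, Kat2b and Crebbp fell by 0.60, 0.47 and 0.43.

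KI_Chd7del library 1 gave the highest value of its group for Klf1, Klf4, Klf6, Klf7, Klf10, Klf11 and Klf13. Without it, 9 of 10 members passed in KI_Chd7del against KI and 9 in KI_Chd7del against WT, while 40.2% and 48.2% of all genes passed. Late neutrophil genes took 4.46% to 5.84% of the library in KI_Chd7del, 1.16% to 3.08% in KI and 12.1% to 14.4% in WT, which bears on any scaling to the column total. That scaling moved the median of all genes to 0.25 in KI against WT and to 0.26 in KI_Chd7del against WT, and leaving those genes out of the total put these medians at 0.07 and 0.13.

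**Figure D5:**
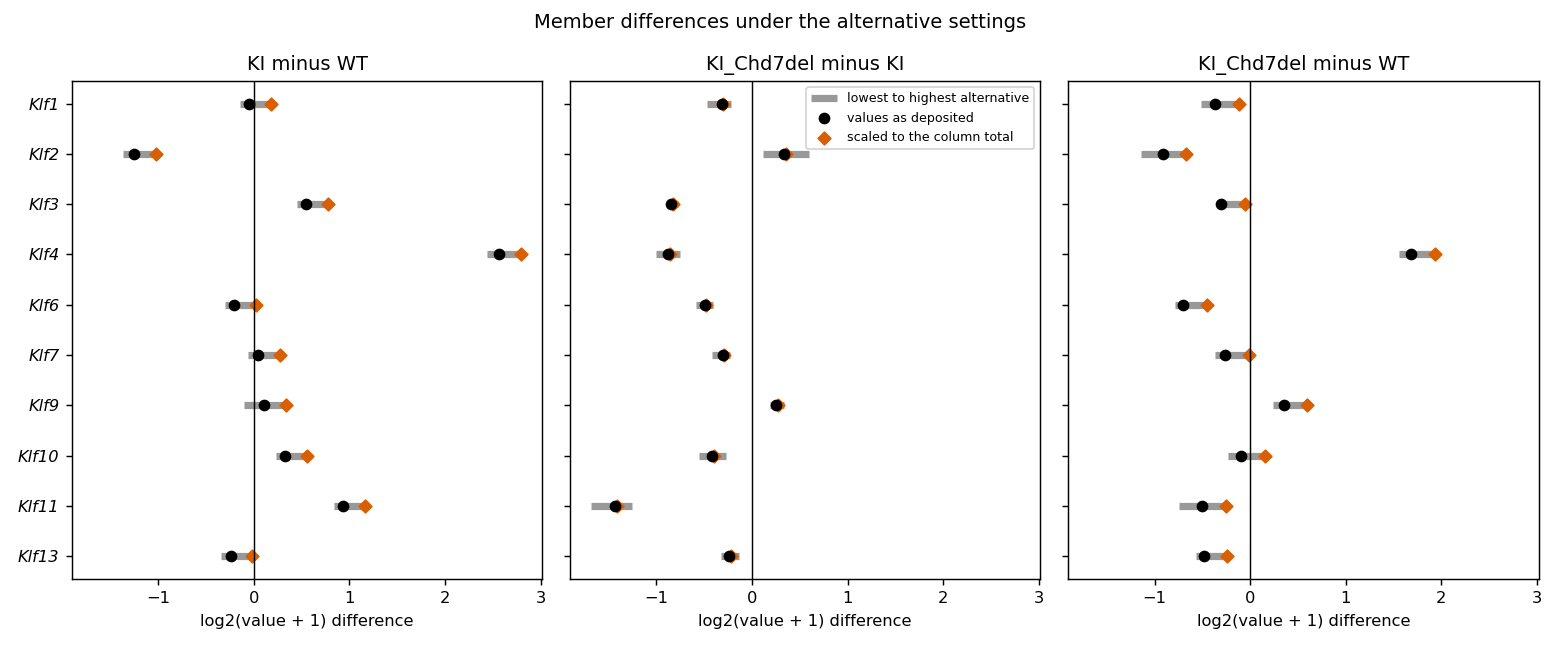
Member differences on the log2(value + 1) scale as deposited (black), scaled to the column total (orange) and over all alternatives (grey, lowest to highest) in the 3 comparisons. In KI minus WT, Klf1, Klf6, Klf7 and Klf9 span 0, whereas Klf4 stays between 2.44 and 2.79.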

How the data were processed

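RNA-seq of c-KIT+ marrow gave 1 column per library. The deposited values have the unit score and are whole numbers. From gaps among low values, they were taken to be read numbers divided by a size factor per library and rounded. The submitters' processing notes name DESeq2, RSEM, STAR 2.4 and CASAVA 1.8.2, without their roles, and the build GRCm38. The design named a count test for raw counts, so its alternative was used: limma 3.58.1 (R 4.3.3) on log2(value + 1), with the prior variance following mean expression, 9 libraries, 3 groups, no block, 2-sided, Benjamini-Hochberg at 0.05 over 15997 genes with at least 10 in at least 3 libraries. The scale understates changes of low genes. The planned count-model alternatives were not run. The fit was tested on simulated data. Symbols and exons came from GENCODE M21, promoters from RefSeq.

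Members and lists were chosen with earlier results of these data known. Named genes are the members, the other family genes, up to 4 genes per list by smallest adjusted p, and, for each member, the 3 genes of smallest Euclidean distance, leaving out Gm, Rik and pseudogene names; a few genes that this rule names are not reported here. Lists leave out members. Sequencing depth per library is unknown from these values. Alternatives were other filters, pseudocounts, scalings, tests, a replicate block and each library left out. Same-numbered libraries did not deviate together across groups (correlations -0.153 to 0.109), so numbers were not used as pairs. Python 3.11.15 was used with matplotlib 3.10.9.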

Additional observations from a re-analysis of the deposited data

How the results depend on the processing

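Over 30 member differences and 21 alternatives each, 543 of 630 values kept direction and side of the threshold, 51 lost the call, 23 gained it and 13 changed sign. Klf4 and Klf2 in KI against WT, Klf3 and Klf11 in KI_Chd7del against KI, and Klf4 in KI_Chd7del against WT kept theirs under all 21. The test against a 1.5-fold change called 2, 2 and 1 members and 3239, 865 and 1700 genes in KI against WT, KI_Chd7del against KI and KI_Chd7del against WT. Leaving out a library gave 4 to 5, 4 to 9 and 5 to 9 members, and 8095 to 8694, 4657 to 6394 and 6273 to 7662 genes.

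Sign changes were all of differences that had not passed. In KI against WT, Klf1 turned to 0.18 (column total) and 0.0015 (total without late neutrophil genes), and leaving out 1 library gave -0.134 to 0.0391. Klf6 turned to 0.0254 (column total). Klf7 turned to -0.0495 (upper quartile) and -0.0632 (quantile), with -0.0433 to 0.102 when a library was left out, and Klf9 to -0.10 (quantile). In KI_Chd7del against WT, Klf10 turned to 0.15 (column total) and 0.0162 (total without late neutrophil genes), with -0.23 to 0.0558 when a library was left out. The cause was not tested.

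With the replicate number as a block, 5, 7 and 7 members were called, Klf10 in KI against WT was lost (adjusted p = 0.0604) and Klf1 passed in both KI_Chd7del comparisons (0.023 and 0.0103). Counts of calls over all genes were 9121, 5952 and 7411. Same-numbered libraries did not deviate together, but 3 libraries per group are too few to exclude a pairing of samples.

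Fits of edgeR and DESeq2 were not run, since the values were not taken to be raw counts. Sequencing depth is unknown, so counting error could not be given.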

Other observations

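Marker lists of other marrow cells moved with genotype as well. All 20 late neutrophil genes fell in KI against WT (median log2 -3.16), 18 rose in KI_Chd7del against KI (median 1.77), and 18 fell in KI_Chd7del against WT (median -1.51). Of 8 early granule genes, 7 fell in KI against WT and 8 rose in KI_Chd7del against KI. Cebpe, a C/EBP factor of granulocytes, had -3.41 and 1.82 in these comparisons. Of 15 erythroid markers, 6 rose and 7 fell in KI against WT, and 10 fell in KI_Chd7del against WT. Of 10 mast cell, basophil and eosinophil genes, 5 rose and 5 fell in KI against WT, with Gata2 at 3.91 and Prss34 at -2.83.

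Of 8 stem cell markers, 7 rose in KI_Chd7del against WT and 4 rose in KI against WT. Tek, an angiopoietin receptor, had 3.27 and 4.55 in these comparisons. Of 9 B cell genes, 8 rose in KI_Chd7del against WT, and of 7 megakaryocyte genes, 5 rose in KI_Chd7del against KI. Of 8 T and NK cell genes, 4 fell and 1 rose in KI against WT, and of 7 stroma and endothelial genes, 3 rose and 2 fell. The part of these cell types in the KLF values was not tested.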
